A study of Xenopus laevis with 8 samples.

Results

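The genes described here belong to the fibroblast growth factor (FGF) pathway as it was represented on an Agilent array for *Xenopus laevis*. A probe was taken as a member when its name or description on the array gave an FGF ligand or receptor, sprouty, spred, sef, a dual specificity (MAP kinase) phosphatase, an Ets factor of the pathway, or a MAP kinase or MAP kinase kinase. The rule found 24 of the 21495 probes, 1 for each gene. They are 7 ligands by name, 5 receptors, 2 other FGF-named genes, 2 feedback genes, 2 Ets factors and 6 kinases. The ligand class includes *fgf13*, an intracellular FGF homologue. All 24 had a value on all 8 arrays, and no member spot was saturated. In both channels of all 8 arrays, 16 members were well above background, and 8 were not so in some channel of some array.

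FGFs are secreted ligands that bind receptor tyrosine kinases at the cell surface. The signal runs through the adaptor FRS2, Ras, Raf, MAP kinase kinase and MAP kinase to Ets transcription factors. Targets of the pathway include its own inhibitors, such as sprouty proteins and MAP kinase phosphatases, and in the frog embryo FGF signaling has known roles in mesoderm formation, posterior patterning and neural induction.

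The study asked which genes respond to EBF3, a helix-loop-helix transcription factor of differentiating neurons, in animal caps, the explanted upper cells of the frog blastula. All embryos received 0.2 ng of mRNA for Noggin, a BMP antagonist that turns caps toward neural tissue, and caps were cut at stage 9. On 4 arrays (active EBF3), the Cy3 channel held caps with 1 ng of hGR-Xebf3 mRNA treated with 30 µM dexamethasone (DEX) for 4.5 hours. On the other 4 arrays (DEX control) it held caps with 0.4 ng of hGR mRNA and the same DEX treatment. The Cy5 channel held, on every array, caps with 1 ng of hGR-Xebf3 mRNA and no DEX. hGR is the part of the human glucocorticoid receptor that binds hormone, and it makes the activity of the fused protein depend on DEX. The caps are thus a model of EBF3 supplied by injected mRNA to a whole explant, and the control arrays differ from a plain DEX test in that the hGR caps held no Xebf3 fusion. The methods describe 4 biological replicates. In bulk RNA of this kind, fewer cells of a type and less RNA per cell cannot be told apart.

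Each value below is the log2 ratio of Cy3 over Cy5, so that a positive value is higher in the DEX-treated caps. Dyes were not swapped, so a dye effect on a single probe cannot be told apart from DEX on the active EBF3 arrays alone. The difference between active EBF3 and DEX control takes out a dye effect that both share. A probe was called at an adjusted p under 0.05 (limma, Benjamini-Hochberg over all probes) with at least a 2-fold mean change. The share of spots well above background was 51.8% to 58.9% in Cy3 over the arrays, and 58.6% to 62.9% in Cy5. Replicates 1 and 2 were on arrays with 1 spot per probe, each on a slide of its own. Replicates 3 and 4 of both groups were on arrays with 2 spots per probe, and these 4 arrays shared 1 slide.

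With active EBF3, 6 of the 24 members were called. The ligands *fgf8*, *fgf9* and *fgf20* and the feedback phosphatase *dusp6* rose, and the receptor *fgfr4* and the gene *frl1* fell. All 6 were also called, in the same direction, in active EBF3 minus DEX control. Of all 21357 probes tested on the active EBF3 arrays, 5.87% were called, 3.03% higher and 2.84% lower, and against the control 3.86% of 21197, 2.42% higher and 1.44% lower. For the members, dim ones included, the share was 25% in either comparison. Many of all the probes were at background. Of probes well above background in at least 1 channel of each array used, 11.4% of 11251 were called on the active EBF3 arrays. Against the control it was 7.11% of 10671. The median log2 ratio of the 24 was 0.16 on the active EBF3 arrays, beside 0.08 for all probes tested. No member was called on the DEX control arrays, where limma called 0 of 21256 probes (121 probes at an unadjusted p under 0.05 with at least a 2-fold change, none of them a member). The methods' t-test after adjustment also called 0 there. These totals over all probes moved with the arrays used. Without replicate 1 limma called 70 higher and 119 lower on the control arrays, none of them a member, and without replicate 2, 3 or 4 the share called on the active EBF3 arrays was 2.65%, 3.25% or 2.22%.

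**Figure D1:**
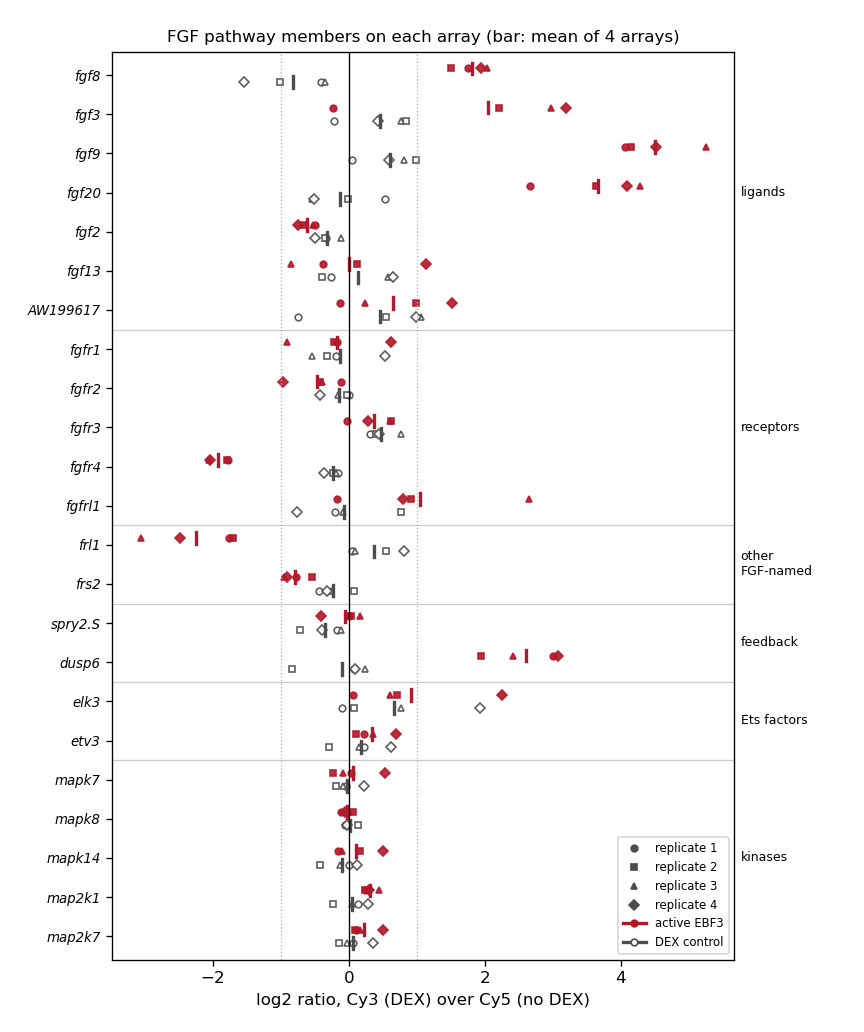
Log2 ratio of Cy3 (DEX) over Cy5 (no DEX) for 23 of the members by class on each of the 4 active EBF3 arrays (filled) and 4 DEX control arrays (open), with replicate number by marker shape, vertical bars at group means and dotted lines at a 2-fold change. The values of *fgf8*, *fgf9*, *fgf20*, *dusp6*, *fgfr4* and *frl1* do not overlap between the groups, while those of the 5 kinases shown lie within 1 of 0.

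In the ligand class, 3 of 7 probes rose with active EBF3. *fgf8*, a secreted ligand of the frog gastrula margin and of the midbrain-hindbrain boundary, was named on the array by its FGF-8b form. In replicates 1 to 4 of active EBF3 its log2 ratio was 1.75, 1.50, 2.03 and 1.94. On the DEX control arrays it was -0.40, -1.01, -0.35 and -1.54. The groups did not overlap, and *fgf8* lay above 0 on 4 of 4 active EBF3 arrays and below 0 on 4 of 4 control arrays. The active EBF3 mean was 1.80 ± 0.23 (SD, n = 4 arrays), 3.49-fold higher (adjusted p = 0.00246 from limma). The control mean of -0.83 ± 0.56 (SD, n = 4) did not pass the test (limma, adjusted p = 0.183). Because the control mean lay below 0, the change against the control was larger than on the active EBF3 arrays alone, at 2.63 on the log2 scale or 6.20-fold (standard error 0.28, adjusted p = 0.00114 from limma).

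The channels can also be read apart. In untreated hGR-Xebf3 caps its processed signal was 1615, 2837, 1793 and 1716 on the active EBF3 arrays and 1593, 2766, 1336 and 1287 on the control arrays. In DEX-treated caps it was 5433, 8022, 7303 and 6601 with hGR-Xebf3 and 1204, 1376, 1045 and 442 with hGR. The hGR caps thus had the lower signal on each control array, most of all in replicate 4.

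*fgf9* encodes a secreted ligand of the same subfamily as *fgf20*, and it had the highest mean of the 24 members. The log2 ratio of *fgf9* was 4.06, 4.14, 5.25 and 4.52 with active EBF3 and 0.05, 0.99, 0.82 and 0.58 on the control arrays. The lowest active EBF3 value lay more than 3 log2 units above the highest control value. The mean of 4.50 ± 0.54 (SD, n = 4) corresponds to 22.6-fold (adjusted p = 0.000707 from limma). Against the control it was 3.89 (standard error 0.31, adjusted p = 0.00027 from limma).

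In untreated hGR-Xebf3 caps *fgf9* was close to the limit of the array. In Cy5 it was well above background on 3 of 4 active EBF3 arrays, with signals of 128, 124, 24.7 and 46.3, and in Cy3 on 4 of 4, with 2139, 2190, 943 and 1063. On the control arrays it was well above background in neither channel of any array, so its ratios there compare signals at background. With normexp background correction (offset 50 in both channels) and loess normalization in place of the scanner's processing, the mean was 2.65 (adjusted p = 0.0149 from limma).

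*fgf20* encodes another secreted ligand. The 4 active EBF3 arrays gave 2.67, 3.63, 4.28 and 4.10 as its log2 ratio, and the control arrays 0.53, -0.01, -0.54 and -0.52. Again the groups did not overlap, and replicate 1 was the lowest active EBF3 array and the highest control array. The mean was 3.67 ± 0.72 (SD, n = 4), 12.7-fold higher (adjusted p = 0.0023 from limma), and 3.81 against the control (standard error 0.39, adjusted p = 0.000884 from limma). In untreated caps *fgf20* was well above background on 2 of 4 active EBF3 arrays and 1 of 4 control arrays. In the hGR caps it was not well above background on any array. With normexp correction and loess the mean was 1.64 (adjusted p = 0.0482 from limma), so the fold of this gene, like that of *fgf9*, is less certain than its direction.

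*fgf3*, a secreted ligand, had a mean of 2.04 but was not called. Its log2 ratio was -0.23 in replicate 1 of active EBF3 and 2.22, 2.98 and 3.20 in replicates 2 to 4. On the control arrays it was -0.22, 0.83, 0.77 and 0.43. Replicate 1 had the lowest value in both groups, and the groups overlapped. In untreated caps *fgf3* was well above background on 0 of 4 active EBF3 arrays, and in DEX-treated hGR-Xebf3 caps on 2 of 4. No fold is therefore given, and the ratio did not pass the test (limma, adjusted p = 0.0944). Without replicate 1, *fgf3* passed the threshold both on the active EBF3 arrays (2.80, adjusted p = 0.00593 from limma) and against the control (2.12, adjusted p = 0.0108 from limma). With normexp correction and loess the ratio was 0.36 (adjusted p = 0.0904 from limma).

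The other 3 ligand probes were not called. *fgf2* encodes a ligand without a classical signal peptide. It was below 0 on all 8 arrays, at -0.51, -0.68, -0.53 and -0.74 with active EBF3 and -0.33, -0.35, -0.12 and -0.50 in the control. Its active EBF3 mean of -0.61 ± 0.12 (SD, n = 4) had an adjusted p of 0.0412 from limma without reaching 2-fold. The difference of *fgf2* from the control was -0.29 (95% interval of the limma fit -0.62 to 0.05, adjusted p = 0.479 from limma). With the replicate number as a block in the fit, the interval was -0.54 to -0.04 (adjusted p = 0.172 from limma). *fgf13*, an intracellular FGF homologue, spread from -0.85 to 1.13 over the active EBF3 arrays around a mean of 0.00, and its difference from the control was -0.14 (95% interval -1.14 to 0.86). AW199617, an expressed sequence tag described as similar to an FGF6-related protein, had a mean of 0.65 ± 0.74 (SD, n = 4; adjusted p = 0.224 from limma) and was well above background on 2 of 4 arrays in each channel.

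**Figure D2:**
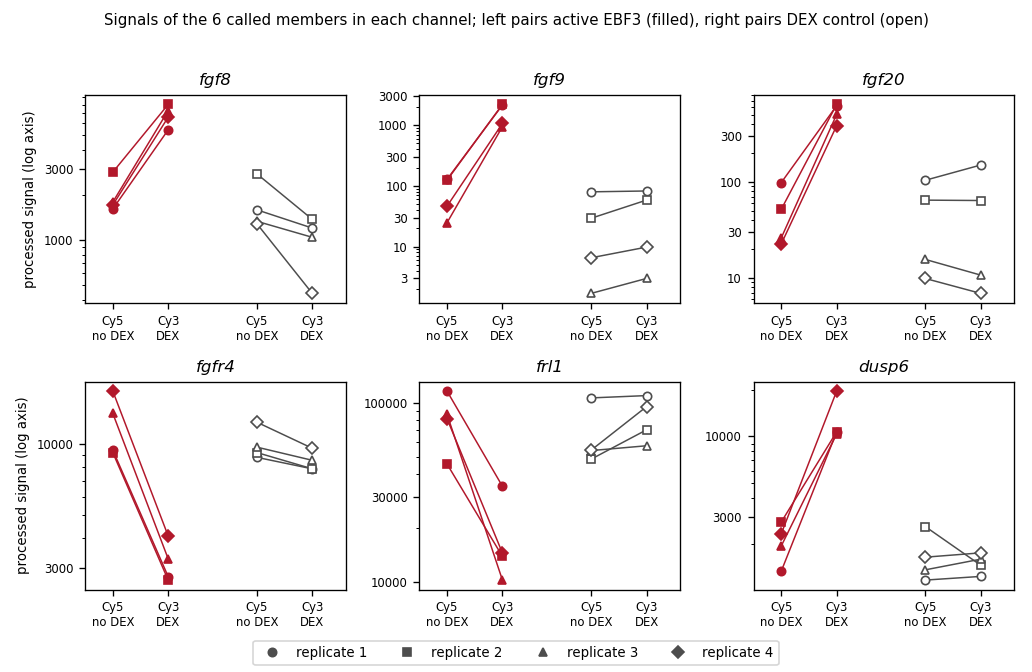
Processed signal (log axis, arbitrary fluorescence units, own range in each panel) of the 6 called members in Cy5 (untreated hGR-Xebf3 caps) and Cy3 (DEX-treated caps), with the active EBF3 arrays as filled pairs on the left and the DEX control arrays as open pairs on the right, each line joining the channels of 1 array. The lines of *fgf8*, *fgf9*, *fgf20* and *dusp6* rise and those of *fgfr4* and *frl1* fall on 4 of 4 active EBF3 arrays.

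Of the 5 receptor probes, *fgfr4* was the only one called, and it fell. FGFR4 is a receptor tyrosine kinase of this family, and the probe, LOC397701 on the array, is *fgfr4.L* by the gene names of the X. laevis v10.1 assembly. Its log2 ratio was -1.78, -1.80, -2.05 and -2.04 with active EBF3 and -0.16, -0.23, -0.19 and -0.37 on the control arrays. The values did not overlap, and the SD between arrays was the smallest of the 6 called members. The mean of -1.92 ± 0.15 (SD, n = 4) corresponds to a signal 3.78-fold lower in DEX-treated caps (adjusted p = 0.00146 from limma). Against the control the difference was -1.68 (standard error 0.14, adjusted p = 0.000354 from limma), 3.21-fold lower. *fgfr4* was well above background in both channels of all 8 arrays, with signals of 9236 to 16850 in untreated caps and 2655 to 4084 in DEX-treated caps on the active EBF3 arrays. The difference was called in each of the alternatives tried, between -1.72 and -1.60.

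The remaining receptors were not called in any comparison. *fgfr1* and *fgfr2*, the widely expressed receptor kinases, were well above background in both channels of all arrays. *fgfr1* had -0.17, -0.22, -0.91 and 0.63 with active EBF3 and -0.19, -0.33, -0.55 and 0.53 in the control. The replicates with the same number lay close together, and the difference between the groups was -0.04 (95% interval -0.83 to 0.76, adjusted p = 0.989 from limma). *fgfr2* was below 0 on 4 of 4 active EBF3 arrays, at -0.11, -0.43, -0.40 and -0.96, with a difference from the control of -0.32 (95% interval -0.80 to 0.15, adjusted p = 0.642 from limma). With the replicate as a block, which the likeness of same-numbered arrays allows, the intervals narrowed to -0.35 to 0.28 for *fgfr1* and to -0.61 to -0.03 for *fgfr2* (adjusted p = 0.187 from limma).

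*fgfr3* was not well above background in either channel of any array, so no fold is given for it. *fgfrl1* encodes a receptor that lacks the kinase domain. It was well above background on 2 of 4 active EBF3 arrays in each channel, with -0.17, 0.91, 2.65 and 0.80 and a mean of 1.05 ± 1.17 (SD, n = 4). Replicate 3 lay far above the others, and *fgfrl1* was not called (adjusted p = 0.202 from limma).

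Of the other FGF-named genes, *frl1* fell. *frl1* was named as an FGF receptor ligand, and its product is a member of the EGF-CFC family, whose known role is as co-receptors for Nodal ligands. The X. laevis v10.1 annotation lists the name as a synonym of *tdgf1.3.L*, and related copies of this gene may share the probe. The *frl1* log2 ratio was -1.76, -1.71, -3.06 and -2.48 with active EBF3 and 0.04, 0.54, 0.09 and 0.80 on the control arrays. It was below 0 on 4 of 4 active EBF3 arrays and above 0 on 4 of 4 control arrays. The mean was -2.25 ± 0.65 (SD, n = 4), a signal 4.77-fold lower (adjusted p = 0.00814 from limma), and the difference from the control was -2.62 (standard error 0.33, adjusted p = 0.00263 from limma). On the active EBF3 arrays alone *frl1* was no longer called when replicate 4 was left out (-2.18, limma, adjusted p = 0.068) or with the methods' t-test (adjusted p = 0.124). Against the control *frl1* was called in each alternative.

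*frs2* encodes the adaptor that links activated FGF receptors to Ras. It had -0.77, -0.55, -0.95 and -0.92 with active EBF3 and -0.44, 0.08, -0.27 and -0.32 in the control. These values did not overlap, and the active EBF3 mean of -0.80 ± 0.18 (SD, n = 4) had an adjusted p of 0.0243 from limma but stayed under 2-fold. The difference from the control was -0.56 (95% interval -0.95 to -0.17, adjusted p = 0.143 from limma). With the replicate as a block the interval was -0.83 to -0.29 (adjusted p = 0.0484 from limma), with the difference again under 2-fold. In all, the 2 groups did not overlap in 8 of the 24 members (33.3%), beside 10.1% of all probes. Of them 4 were higher with active EBF3 and 4 lower, beside 4.9% and 5.25% of all probes. These were the 6 called members together with *fgf2* and *frs2*. For *fgf2* the gap was narrow, with the highest active EBF3 value at -0.51 and the lowest control value at -0.50.

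Of the feedback genes, *dusp6* rose. DUSP6 (MKP3) removes phosphate from MAP kinases, and its gene is a known target of FGF signaling in vertebrate embryos. The probe is described on the array as the MAP kinase phosphatase X17C. Its log2 ratio was 3.00, 1.94, 2.41 and 3.07 with active EBF3 and 0.08, -0.83, 0.23 and 0.09 on the control arrays. The groups did not overlap, and replicate 2 was the lowest in both. The mean was 2.61 ± 0.53 (SD, n = 4), 6.09-fold higher (adjusted p = 0.00317 from limma), and 2.71 or 6.56-fold against the control (standard error 0.33, adjusted p = 0.00197 from limma). It was called in each alternative tried.

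A second *dusp6* probe gave like values. *Xenopus laevis* carries 2 subgenomes, L and S, and many genes have a copy in each. The array gives this probe only a gene number, which the annotation pairs with *dusp6.S*, so the probe was outside the rule for members. The log2 ratio of *dusp6.S* was 3.47, 2.20, 2.73 and 2.83 with active EBF3 and 0.02, -0.68, 0.33 and -0.27 in the control. Here too replicate 2 was the lowest in both groups. The mean of 2.81 ± 0.52 (SD, n = 4) corresponds to 6.99-fold (adjusted p = 0.0024 from limma), and the difference from the control was 2.96 (adjusted p = 0.000965 from limma). How far the copies cross-hybridize was not tested, so these are not independent measures of 2 genes.

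Sprouty 2, an inhibitor of receptor tyrosine kinase signaling, did not pass the threshold. The member probe, *spry2.S*, had 0.01, 0.03, 0.16 and -0.41 with active EBF3 and -0.17, -0.71, -0.12 and -0.40 in the control, with a difference of 0.29 (95% interval -0.15 to 0.74, adjusted p = 0.664 from limma). The probe annotated as *spry2.L* had 0.31, 0.17, 0.98 and 0.46 with active EBF3 and -0.27, -0.94, -0.15 and -0.51 in the control. Its groups did not overlap, but the difference of 0.95 (95% interval 0.40 to 1.49) stayed under 2-fold and had an adjusted p of 0.0705 from limma. With the replicate as a block the adjusted p was 0.0209, again under 2-fold. The phosphatase probes *dusp14.S* and *dusp23.L*, found by annotation as well, had active EBF3 means of 0.42 and 0.25 and were not called. No member probe was named for spred, sef, sprouty 1 or sprouty 4.

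The Ets factors, the nuclear end of the pathway, were not called. *elk3*, a ternary complex factor of the Elk type, had 0.06, 0.71, 0.61 and 2.25 with active EBF3 and -0.10, 0.07, 0.77 and 1.93 in the control. Replicate 4 was the highest in both groups, and the difference between the groups was 0.24 (95% interval -1.05 to 1.53, adjusted p = 0.932 from limma), or -0.15 to 0.64 with the replicate as a block. *elk3* was well above background on 1 of 4 active EBF3 arrays in Cy3 and 0 of 4 in Cy5. *etv3*, an Ets repressor, was above 0 on 4 of 4 active EBF3 arrays with a mean of 0.34 ± 0.25 (SD, n = 4), and its difference from the control was 0.17 (adjusted p = 0.883 from limma). The probe XER81, which the annotation gives as *etv4.L* and which belongs to the PEA3 group of Ets factors known as readouts of FGF signaling, was found by annotation. It had 0.57, 1.01, 0.74 and 0.30 with active EBF3 and 0.11, 0.27, 0.06 and 0.18 in the control. These values did not overlap, but neither the active EBF3 mean of 0.66 ± 0.30 (SD, n = 4; adjusted p = 0.0662 from limma) nor the difference of 0.50 (adjusted p = 0.223 from limma) was called.

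None of the 5 kinases described here was called. All 5 were well above background in both channels of all 8 arrays, and their active EBF3 means lay between -0.02 and 0.31. *mapk8*, the gene of the stress kinase JNK1, had -0.11, 0.07, 0.00 and -0.05 with active EBF3, and its difference from the control was -0.03 (95% interval -0.33 to 0.27). *map2k1*, the gene of MEK1 and named mek-2 on the array, was above 0 on 4 of 4 active EBF3 arrays at 0.23, 0.24, 0.45 and 0.30, with a difference of 0.25 (95% interval -0.11 to 0.61, adjusted p = 0.621 from limma). *mapk7* (ERK5), *mapk14* (p38 alpha) and *map2k7*, a kinase that activates JNK, had means of 0.06, 0.10 and 0.22. Over these 5 kinases the 95% intervals of the difference from the control ran from -0.37 to 0.67, so changes of 2-fold lay outside all of them.

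**Figure D3:**
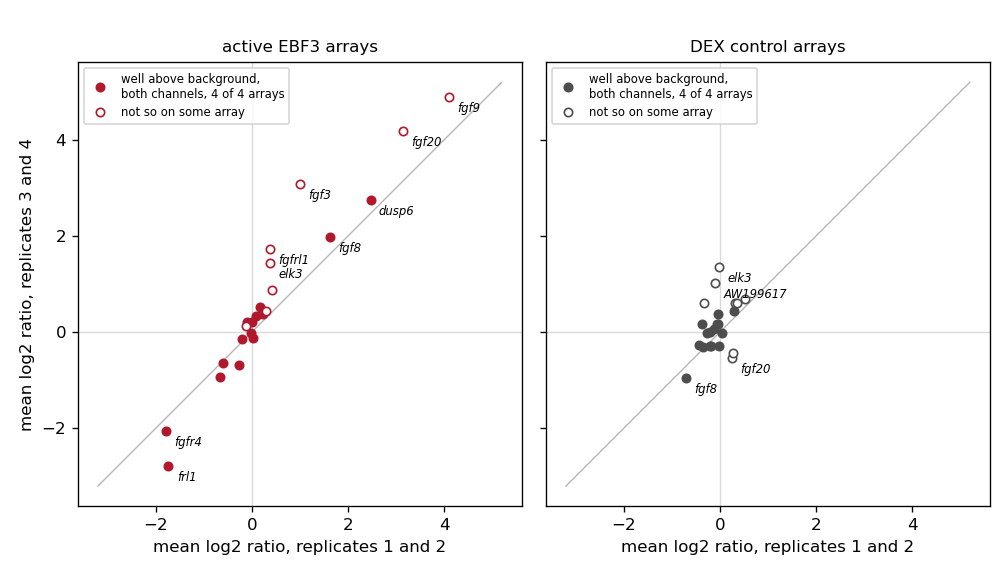
Mean log2 ratio of 23 of the members over replicates 3 and 4 (vertical axis, 1 slide for all 4 arrays) against that over replicates 1 and 2 (horizontal axis, separate slides), for the active EBF3 arrays (left) and the DEX control arrays (right), with open points for members not well above background in both channels of all 4 arrays and a diagonal line of equal values. On the active EBF3 arrays the 6 called members keep their sign in both array designs, and *fgf3*, at 0.99 and 3.09, lies farthest from the line.

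The 6 called members kept their direction within each array design. On the slide that held replicates 3 and 4 of both groups, active EBF3 minus DEX control was 2.93 for *fgf8*, 4.19 for *fgf9*, 4.72 for *fgf20* and 2.58 for *dusp6*. For *fgfr4* it was -1.77, and for *frl1* -3.22. In replicates 1 and 2 the same differences were 2.33, 3.58, 2.89, 2.85, -1.60 and -2.03. Of the 4 genes well above background in both channels of all 8 arrays, *fgf8*, *fgfr4* and *frl1* had the larger difference on the shared slide and *dusp6* the smaller. The control signals of *fgf9* and *fgf20* were at or near background, so the sizes of their differences cannot be set against each other. Each of these means rests on 2 arrays a group and was not tested.

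Other genes of the pathway were taken from a list of adaptors, Ras and Raf proteins, further kinases, surface proteins and transcription factors. Of 31 such probes, 30 were tested with active EBF3, and 3 (10%) rose while 0 fell, beside 3.03% and 2.84% of all probes. Against the control 3 of 30 rose as well, beside 2.42% of all probes. *flrt3* and *flrt2* encode transmembrane proteins of a family that binds FGF receptors, and FLRT3 is known in the frog to promote FGF signaling. *flrt3* had 0.91, 2.20, 2.37 and 1.75 with active EBF3 and -0.38, -0.04, -0.40 and -0.19 in the control. Its mean was 1.81 ± 0.65 (SD, n = 4; 3.50-fold, adjusted p = 0.0152 from limma), and the difference from the control was 2.06 (adjusted p = 0.00602 from limma). Leaving out replicate 2, 3 or 4 ended this call in both comparisons, with adjusted p between 0.0588 and 0.095 from limma, and the methods' t-test did so on the active EBF3 arrays (adjusted p = 0.249).

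*flrt2* had 1.96, 1.29, 1.90 and 1.67 with active EBF3 and 0.17, 0.06, 1.08 and -0.68 in the control. All 4 active EBF3 values were above the highest control value, and the mean was 1.70 ± 0.30 (SD, n = 4; 3.25-fold, adjusted p = 0.0043 from limma). The difference from the control, 1.55 (adjusted p = 0.0431 from limma), was not called with normexp correction and loess (adjusted p = 0.0887), with centered ratios (0.0546), with the array design as a block (0.0585), or without replicate 1 (0.166), 2 (0.185) or 4 (0.15), all from limma.

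*xcad2*, a caudal homeobox gene, had 1.14, 1.58, 3.65 and 3.20 with active EBF3 and -0.03, -0.34, -1.50 and -0.02 in the control. Its mean was 2.39 ± 1.22 (SD, n = 4; 5.25-fold, adjusted p = 0.0345 from limma), with higher values in replicates 3 and 4 than in 1 and 2. The difference of 2.86 (adjusted p = 0.0316 from limma) was not called with the replicate as a block (adjusted p = 0.0783), with normexp correction and loess (0.0594), or without replicate 2 (0.13), 3 (0.159) or 4 (0.153), all from limma. On the active EBF3 arrays alone its call was lost with normexp correction and loess (0.0724), without replicate 2 (0.0797), 3 (0.0922) or 4 (0.149), all from limma, and with the methods' t-test (0.38). The brachyury genes, mesodermal factors that FGF signaling maintains in the frog, were at or near background. *xbra3* was well above background in neither channel of any array, and *xbra* in Cy3 on 0 of 4 active EBF3 arrays.

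The other tested probes of the list were not called in either comparison. The adaptor gene *grb2* had the lowest mean on the active EBF3 arrays, with -0.58, -0.91, -0.79 and -1.35. On the control arrays *grb2* was below 0 as well, at -0.31, -0.36, -0.07 and -0.84, and the groups overlapped. The difference was -0.51 (adjusted p = 0.38 from limma). Its active EBF3 mean of -0.91 (adjusted p = 0.0306 from limma) passed 2-fold only with centered ratios (-1.01) or without replicate 1 (-1.02). *kras* had 0.53, 0.81, 0.92 and 0.51 with active EBF3, above its control values of 0.11 to 0.27, with a difference of 0.50 (adjusted p = 0.143 from limma). Glypican-4, a heparan sulfate carrier at the cell surface, had a difference from the control of -0.69 (adjusted p = 0.0276 from limma), under 2-fold. *c-raf* had no value in replicate 1 of active EBF3, so it was not tested there or against the control. Its log2 ratio in replicates 2 to 4 was 0.75, 0.65 and 0.74, beside 0.05 to 0.62 on the control arrays.

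**Figure D4:**
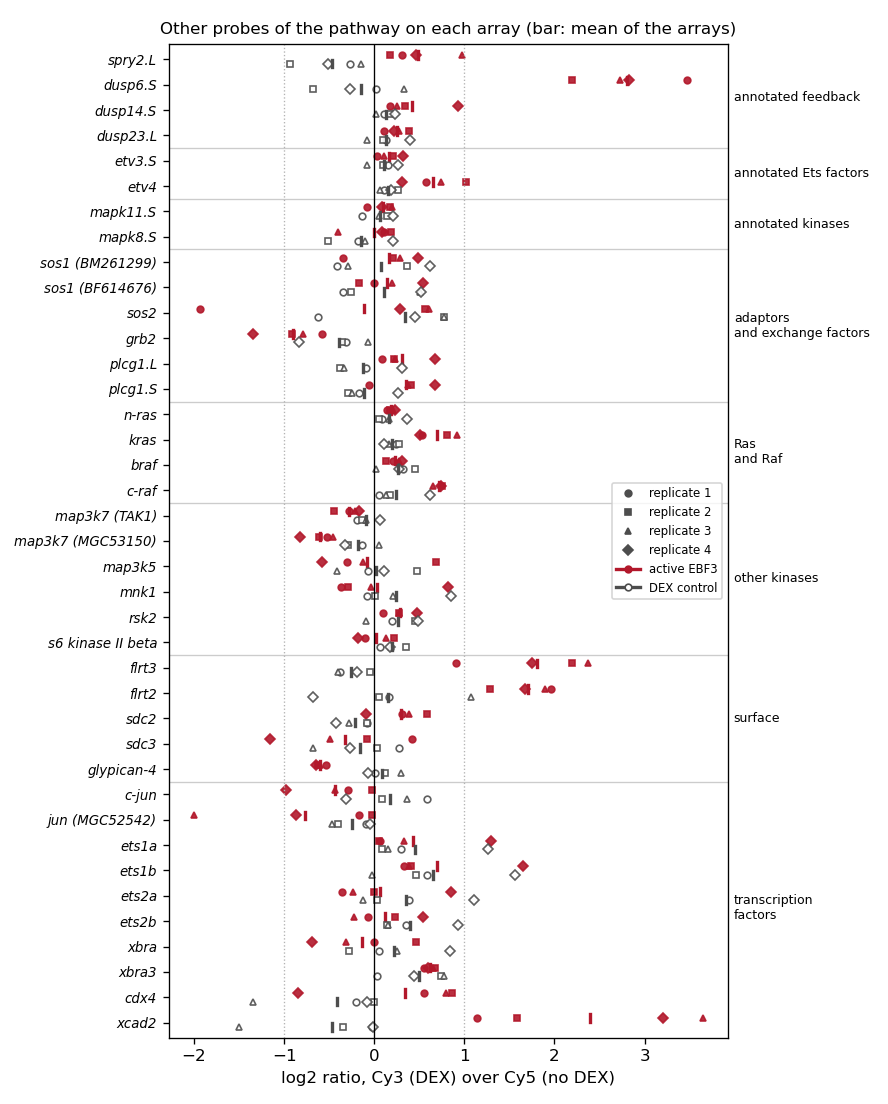
Log2 ratio of Cy3 (DEX) over Cy5 (no DEX) on each array for 8 probes placed in the member classes by genome annotation only and for 31 probes of other genes of the pathway, with active EBF3 filled, DEX control open, replicates by marker shape, vertical bars at group means and dotted lines at a 2-fold change. Only *dusp6.S*, *flrt3*, *flrt2* and *xcad2* were called, all higher with active EBF3.

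Markers of several tissues moved on the same arrays. Of 6 neural markers, all well above background in untreated caps, 3 fell with active EBF3 and none rose, and the summed signal of the 5 with values on all arrays had a log2 ratio of -1.36 to -0.72, beside -0.40 to -0.06 on the control arrays. Of 10 mesoderm markers 4 rose with active EBF3. These were both *myod* probes, *myf5* and *brat*, and against the control *brat* was not called (adjusted p = 0.0808 from limma). The summed ratio of the 10 was 3.88 to 4.91 beside -0.60 to -0.37, with the *myod* probes by far the brightest in DEX-treated caps, and their median ratio was 0.29 to 2.14 beside -0.28 to 0.50. *eomesodermin* had a mean of 2.20 and *tbx6* of 1.75, each above 0 on 4 of 4 active EBF3 arrays, and neither was called. *goosecoid* had a mean of -1.37 beside -0.70 in the control, and *chordin* of -0.54 beside -0.87, neither called. The mean of *xbra* was -0.14, while *xbra3* was at background in both channels of all arrays. Of 3 epidermal markers 1 fell, and of 6 endoderm markers 1, *mix.1*, rose. Of all probes tested on the active EBF3 arrays, 3.03% were called higher and 2.84% lower. The other endoderm markers were not called, with means of -2.62 for *sox17 alpha*, -1.19 for *sox17 beta*, -0.64 for *cerberus*, -0.25 for *mixer* and 2.04 for *gata4*. All of these but *cerberus* were not well above background in some channel of some array. The part of these shifts in the changes of the FGF pathway genes was not tested.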

How the data were processed

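Total RNA from animal caps was hybridized to 8 two-color arrays, 4 per group. The authors extracted spot intensities with Agilent Feature Extraction (9.1.3.1 per the labels, 8.1.1.1 in the file headers of replicate 1), and the deposited processed intensity of each channel is background-subtracted and LOWESS-normalized. The authors' deposited table of log10 ratios equals the scanner ratio as Cy3 over Cy5. It was an alternative.

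Control and non-uniform spots were left out, spots of a probe averaged, and log2 ratios tested uncentered with limma 3.58.1 in R 4.3.3 (lmFit and eBayes, two-sided). Members and lists were chosen with earlier results of these data known. Named were all called members, those with a 2-fold mean change, and a fixed set of pathway genes. The values of 1 member and of 1 further probe, both counted in the totals, are not reported here. Of 24 members, 23 matched a symbol, synonym or gene number of X. laevis v10.1. Text matches for kinases further up, interacting or associated proteins (6 probes) were not members.

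Same-numbered arrays deviated together (r = 0.591, 0.493, 0.366 and 0.574 over 21197 probes), so the numbers pair the arrays. The main fit against the control leaves this pairing out. In that fit the adjusted p of the 6 called members ran from 0.00027 to 0.00263 (limma). With the replicate as a block it was larger, from 0.00239 for *fgf9* to 0.0156 for *fgf20* (limma). The scripts were tested on simulated data.

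Alternatives were normexp (offset 50) with loess, the authors' table, the methods' t-test, non-uniform spots kept, dim probes left out, median centering, the array design or replicate as a block, and leaving out each replicate. The methods do not say whether their t-test was paired. Here it was unpaired between the log2 signals of the channels, leaves out their pairing within an array, and may differ from the authors' own test. The number of arrays limits the precision.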

Additional observations from a re-analysis of the deposited data

Results flagged for a closer look

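In the set of 48 groups of 4 values (24 members, 2 groups of arrays), 1 held a value far from the others. On the DEX control arrays *dusp6* was at -0.83 in replicate 2 and at 0.08, 0.23 and 0.09 in replicates 1, 3 and 4. The gap to the nearest value was 0.858 of the range, above Dixon's limit for 4 values, which chance passes in about 1 in 20 such groups. The *dusp6.S* probe had -0.68 on the same array.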

How the results depend on the processing

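On the active EBF3 arrays 4 members were called higher in each alternative except the array design as a block and the fit without replicate 1, which gave 5 by adding *fgf3* (2.04, adjusted p = 0.0372, and 2.80, adjusted p = 0.00593, from limma). With each replicate left out the count of higher members ran from 4 to 5 and that of lower members from 1 to 2, the member lost without replicate 4 being *frl1*. The methods' t-test after adjustment gave 4 higher and 1 lower. Against the control, leaving out pairs gave 4 to 5 higher and 2 lower. Leaving out dim probes left 16 members in that comparison and 2 higher, since *fgf9* and *fgf20* were not well above background on every control array. The replicate block gave 4 higher and 2 lower, the main counts, and changed no member's call. On the DEX control arrays 0 members were called in each alternative, while over all probes leaving out dim probes gave 2 higher and 9 lower and the authors' table gave 1 lower. The share of all probes called on the active EBF3 arrays ran from 2.22% to 6.91% with each replicate left out, and against the control from 1.71% to 3.69%.

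In all, 898 values of single members were recomputed over 14 settings. No called value changed sign, 2 calls were lost, 3 were gained, and 44 values that were not called changed sign, of which 13 did so in the means of replicates 1 and 2 and 4 in those of replicates 3 and 4. Centering each array moved the median over all probes from 0.08 to -0.02 on the active EBF3 arrays and turned no called member. Normexp correction with loess changes the background correction and the normalization. It also adds an offset of 50 to both channels, which by itself brings ratios of low signals nearer to 0. This setting moved *fgf9* from 4.50 to 2.65 and *fgf20* from 3.67 to 1.64. The brighter *fgf8*, *fgfr4*, *frl1* and *dusp6* moved from 1.80, -1.92, -2.25 and 2.61 to 1.62, -1.83, -2.23 and 2.40. The part of each step was not tested. The 8 members that were dim in some channel are the least precise, and *fgfr3* gave no fold at all.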

Other observations

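The genes of Ets1 and Ets2, further Ets factors, were not called, and replicate 4 had the highest value in each group for all 4 of their probes. The *ets1b* probe was at 1.65 with active EBF3 and 1.56 in the DEX control in replicate 4, beside 0.33 to 0.40 and -0.03 to 0.58 in the other replicates. The *fgfr1* and *elk3* probes were likewise highest in replicate 4 of both groups.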
